A study of Caenorhabditis elegans with 6 samples.

Results

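RNA polymerase II, the enzyme that transcribes protein-coding genes, was followed through the transcripts of its subunits. The genes were ama-1 and rpb-2 to rpb-10, and a probe set (the group of array probes that reports a transcript) was taken where the platform annotation gave it 1 of these symbols and no other. This left 9 probe sets of the 22548 tested, 1 for each of 9 of the 10 genes, out of 17118 genes named on the array, since rpb-3 had no probe set of its own. The genes were chosen by their Au-NP against control differences on these arrays, in that the split into the 2 large and 7 small measured subunits was made with those differences known. Their values in that comparison are therefore given as a description, and nothing is inferred from how many of them differed.

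The data were messenger RNA levels in whole Caenorhabditis elegans of the wild-type strain N2, measured on Affymetrix arrays. In the Au-NP group, age-matched third-stage larvae (L3) stood for 12 h in 50% K-medium, a dilute salt solution, with gold nanoparticles of 4 nm coated with citrate at 5.9 mg/L, the LC10 according to the labels, and then for 12 h in medium without particles. The control group is named only as control, and both groups came from worms kept at 20 °C, with about 2000 worms to a dish and RNA taken at 24 h. Each group had 3 arrays from 3 dishes, and nothing says that the dishes came from separate cultures, so every error and p-value given here reflects dish-to-dish spread.

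The core of RNA polymerase II is built around its pair of large subunits, which form the sides of the cleft that holds the DNA. The largest, encoded by ama-1 in the worm, carries the repetitive C-terminal domain (CTD) that is phosphorylated as transcription starts and proceeds. The smaller subunits, whose roles are known best from yeast, brace the core, grip the DNA ahead of the enzyme or form a stalk that binds the emerging RNA, and several of them also belong to RNA polymerases I and III, which make ribosomal RNA and small RNAs such as transfer RNA.

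Values are the deposited log2 signals, on which a difference of 1 is a doubling. The array medians lay between 7.03 and 7.09, and the median difference between the groups over all probe sets was 0.03. Au-NP replicate 3 stood apart from its group, with a correlation across probe sets of 0.988 and 0.990 to the other Au-NP arrays, which had 0.997 to each other, while control pairs had 0.996. To control replicates 1 to 3 that array had 0.990, 0.987 and 0.989, so it was about as close to the controls as to its own group. All 6 tissue marker lists (germ line, intestine, body-wall muscle, neurons, hypodermis and pharynx) summed to at least 8075 on the linear scale on every array, although without detection calls single markers could not be called present. In whole worms, fewer cells of a type and less RNA per cell cannot be told apart. Directions are those of the array labels. The published account of this experiment, as remembered here and not checked, has abu genes higher after exposure, whereas abu-11 was 1.45 log2 units lower in the arrays labelled Au-NP, and which is right was not settled here.

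The largest subunit gene, ama-1, had the biggest difference of the 9. Its signal was 8.507, 8.195 and 8.208 in Au-NP replicates 1 to 3, against 9.002, 8.953 and 9.073 in the controls. Every Au-NP array lay below every control array, with a gap of 0.45 between the nearest of them. The means were 8.30 ± 0.18 in Au-NP worms and 9.01 ± 0.06 in controls (SD, n = 3 each), a log2 difference of -0.71 ± 0.10 (moderated SE from limma) or 1.63-fold lower in Au-NP worms. Of all tested probe sets, 2.97% had a lower difference. The ama-1 probe set is among those that may cross-hybridize with other transcripts.

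The gene rpb-2 encodes the second-largest subunit, which faces the largest across the active-site cleft. Its signal was 8.93, 8.81 and 9.15 in Au-NP replicates 1 to 3, against 9.14, 9.13 and 9.34 in the controls. Au-NP replicates 1 and 2 were below every control, while Au-NP replicate 3 lay just above the lower 2 controls, so the groups overlapped. The log2 difference was -0.24 ± 0.11 (SE), and it was -0.33 ± 0.11 without Au-NP replicate 3. It did not pass the threshold with that array or without it.

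**Figure D1:**
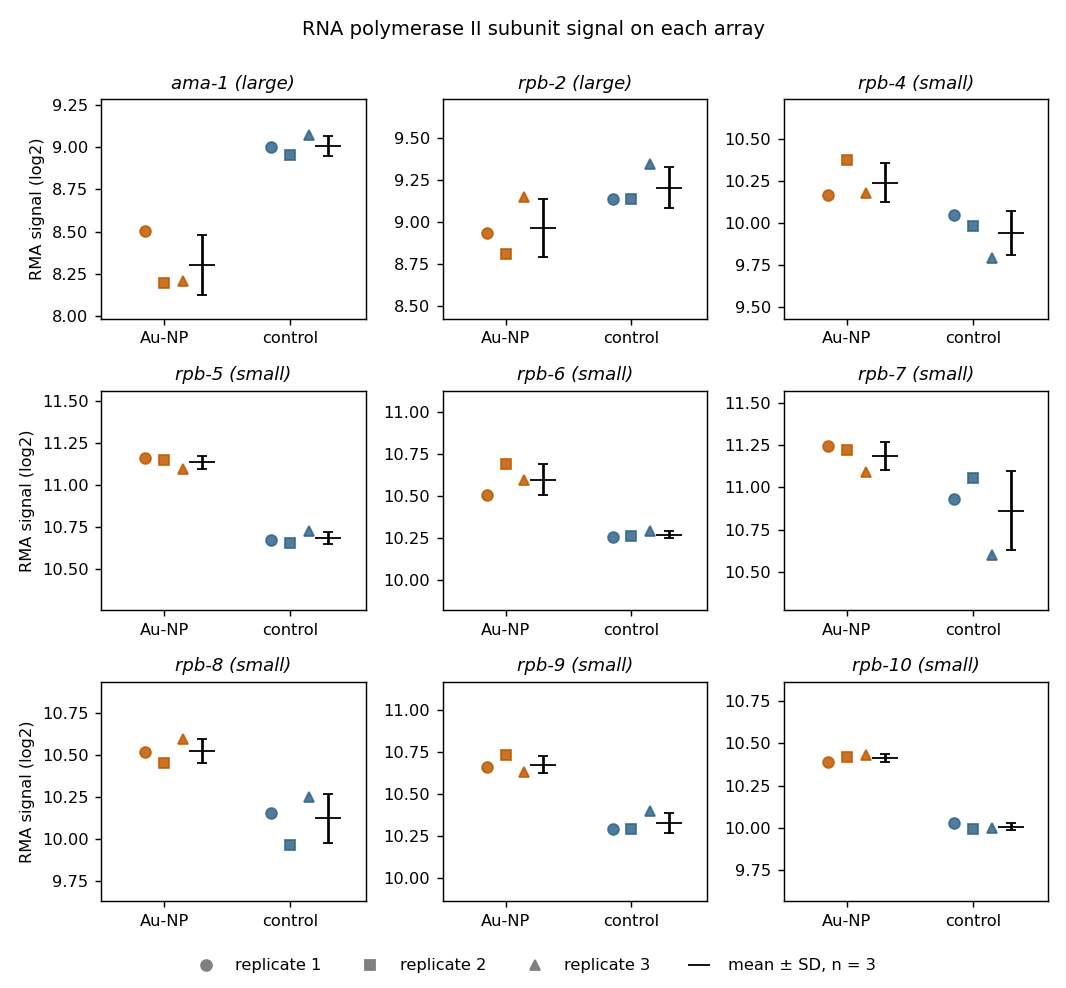
RMA signal (log2, vertical axis) of the 9 RNA polymerase II subunit probe sets in Au-NP and control worms, with a symbol for each replicate and bars for mean ± SD (n = 3 arrays); all panels cover the same length of axis. The ama-1 panel has the Au-NP arrays at 8.19 to 8.51 and the controls at 8.95 to 9.07, and the 7 small-subunit panels have every Au-NP array above every control.

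Among the small subunits shared, in yeast and human, with RNA polymerases I and III, rpb-5 had the largest difference. The product of rpb-5 is known in yeast to contact the DNA ahead of the active site. Its signal was 11.16, 11.15 and 11.09 in Au-NP replicates 1 to 3, against 10.67, 10.65 and 10.72 in the controls. The spread was 0.04 (SD) within each group, and the log2 difference was 0.45 ± 0.07 (SE), or 1.37-fold higher in Au-NP worms. The gene rpb-10 encodes a small zinc-binding subunit of the assembly platform. It had 10.39, 10.42 and 10.43 in Au-NP worms, against 9.99 to 10.03 in controls. These arrays were the tightest of the set, with SDs of 0.02 in each group, and the difference was 0.41 ± 0.07 (SE).

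The other shared subunits measured were rpb-6, whose product is needed in yeast for a stable assembly of the enzyme, and rpb-8. The rpb-6 signal was 10.51, 10.69 and 10.59 in Au-NP replicates 1 to 3, against 10.26, 10.26 and 10.29 in the controls, a difference of 0.33 ± 0.08 (SE). The rpb-8 signal was 10.52, 10.46 and 10.60 in Au-NP replicates 1 to 3, against 10.15, 9.97 and 10.25 in the controls, a difference of 0.40 ± 0.10 (SE). Neither gene's groups overlapped, and the controls of rpb-8 were spread more widely (SD 0.15) than those of rpb-6 (SD 0.02).

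Of the small subunits specific to RNA polymerase II, rpb-9 encodes the one tied in yeast to transcript fidelity. It had 10.66, 10.73 and 10.63 in Au-NP worms, against 10.29, 10.29 and 10.40 in controls, a log2 difference of 0.35 ± 0.07 (SE). The products of rpb-4 and rpb-7 form the stalk that projects from the core. The rpb-4 signal was 10.17, 10.37 and 10.18 in Au-NP replicates 1 to 3, against 10.05, 9.98 and 9.79 in the controls. The rpb-7 signal was 11.24, 11.22 and 11.09 in Au-NP replicates 1 to 3, against 10.93, 11.06 and 10.60 in the controls. Both stalk genes had higher values in every Au-NP array than in any control, but the margin was only 0.12 for rpb-4 and 0.03 for rpb-7. Their differences were 0.30 ± 0.10 and 0.32 ± 0.12 (SE), and control replicate 3 was the lowest array for both.

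The 7 small subunits thus had log2 differences between 0.30 and 0.45, with a median of 0.35. By array, the median of the small subunits against the control mean was 0.38, 0.41 and 0.32 in Au-NP replicates 1 to 3. For the 2 large subunits the same median was -0.39, -0.60 and -0.43. Au-NP replicate 3, which stood apart over all probe sets, had medians of the same signs as the other Au-NP arrays in both classes. The large-subunit median is the mean of ama-1 and rpb-2, which had -0.80 and -0.05 in that array. Each control set against the mean of the other 2 controls gave medians between -0.02 and 0.03 for the small subunits and between -0.10 and 0.15 for the large ones.

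In the limma fit over all probe sets, with a Benjamini-Hochberg adjusted p below 0.05 as threshold, 5 of the 7 small subunits were past it as higher (rpb-5, rpb-6, rpb-8, rpb-9 and rpb-10) and rpb-4 and rpb-7 were not. Of all probe sets, 6.24% were past it as higher and 5.68% as lower. Of the 2 large subunits, ama-1 was past it as lower. The groups did not overlap, with Au-NP higher, for 7 of 7 small subunits and for 19.2% of all probe sets, and with Au-NP lower for 1 of 2 large subunits and 11.6% of all probe sets. Since the genes were chosen with this contrast known, these counts describe them and no more. The count of small subunits past the threshold was 2, 1 and 1 without control replicates 1, 2 and 3 in turn, and 3, 0 and 4 without Au-NP replicates 1, 2 and 3, while ama-1 stayed past it each time. Without Au-NP replicate 2, 5 small subunits were higher at an unadjusted limma p below 0.05, as were 12.4% of all probe sets.

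The large and small subunits also differ in the length of their genes. Gene span, the distance from the start to the end of a gene with introns, was taken from the reference gene table of assembly WBcel235. The ama-1 gene spans 10100 bp and rpb-2 4838 bp, while the small-subunit genes span from 394 bp (rpb-10) to 1601 bp (rpb-7). Over all probe sets the difference between the groups moved with span. With the probe sets in 5 equal classes by span, the class of the shortest genes (up to 1285 bp) holds 6 of the 7 small subunits. In that class 11.7% were higher, 1.16% lower and the median was 0.08. The class of the longest genes (from 5441 bp), which holds ama-1, had 2.27% higher, 15% lower and a median of -0.06.

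The subunits, chosen with these differences known, can also be placed within their span classes, of which that of ama-1 is wide (5441 to 81724 bp). The difference of ama-1 lay above 6.89% of its span class and that of rpb-2 above 16.3% of its own, while the small subunits lay above 79.5% (rpb-4) to 91.4% (rpb-5) of theirs. With each array corrected for its trend with span, ama-1 had -0.63 ± 0.10 and rpb-2 -0.24 ± 0.10 (SE, log2). The small subunits then had 0.16 (rpb-4) to 0.32 (rpb-5). Of the 5 past the threshold before the correction, only rpb-5 remained past it. The part of gene span in the differences of the subunits was not tested. 

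**Figure D2:**
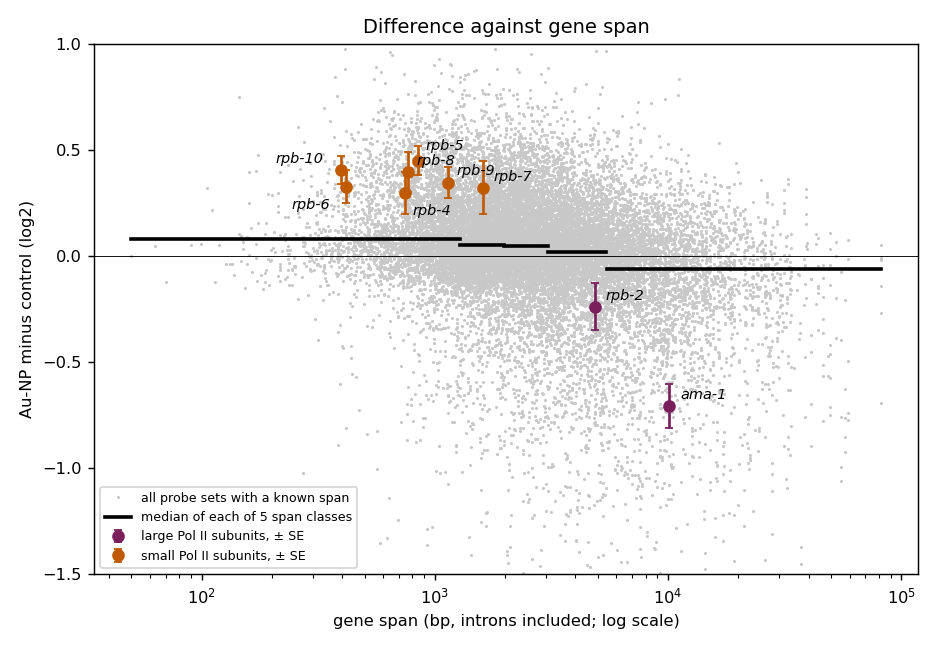
Difference between Au-NP and control arrays (log2, vertical axis) against gene span (bp, log axis) for all probe sets with a known span (grey), with the median of each of 5 span classes (black) and the RNA polymerase II subunits ± SE. The axis shows -1.5 to 1 and leaves out 65 probe sets; the small subunits sit at 0.30 to 0.45 over class medians of 0.05 to 0.08, and ama-1 at -0.71 over a median of -0.06.

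The remaining subunits of the enzyme with a probe set of their own, rpb-11 and rpb-12, were not among the genes above. Their list was also chosen with earlier results of these data known, so their values are likewise a description. In yeast the product of rpb-11 pairs with that of rpb-3 at the start of assembly, and that of rpb-12 is shared by all 3 polymerases. The rpb-11 signal was 10.24, 10.18 and 10.29 in Au-NP replicates 1 to 3, against 9.71, 9.80 and 9.93 in the controls. The rpb-12 signal was 11.32, 11.40 and 11.36 in Au-NP replicates 1 to 3, against 11.03, 11.01 and 10.72 in the controls. Its probe set is among those that may cross-hybridize with other transcripts, as are those of ama-1, rpb-2, rpb-4, rpb-7, rpb-8 and rpb-9. Both rpb-11 and rpb-12 rose, by 0.42 ± 0.08 and 0.44 ± 0.10 (SE, log2), with limma adjusted p of 0.0225 and 0.0324. Neither gene's groups overlapped. With the correction for span the differences were 0.29 and 0.31 (limma adjusted p = 0.0742 and 0.121). The call held only without control replicate 3 or Au-NP replicate 3 for rpb-11, and only without Au-NP replicate 3 for rpb-12, when single arrays were left out.

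RNA polymerase I, which makes the large ribosomal RNAs, had 5 subunit genes measured, of which 2 rose and 1 fell. Over all 17118 named genes, 7.49% had a probe set that was higher and 4.94% a probe set that was lower. Its largest subunit gene, rpoa-1, fell: it had 8.18, 8.04 and 8.01 in Au-NP worms, against 8.74, 8.73 and 8.79 in controls. That is a log2 difference of -0.68 ± 0.08 (SE, limma adjusted p = 0.00511), and it passed without each array in turn and after the correction for span (-0.52). The second-largest subunit gene, rpoa-2, had 0.03 and 0.08 in its 2 probe sets, neither past the threshold. The small subunit gene rpoa-12 rose by 0.42 ± 0.07 (SE) and rpac-40, shared with RNA polymerase III, by 0.44 ± 0.11 (limma adjusted p = 0.0123 and 0.0417). The call was lost without control replicate 3 or Au-NP replicate 2 for rpoa-12, and for rpac-40 it was kept only without Au-NP replicate 3. After the correction for span the adjusted p was 0.0552 and 0.0543. The gene rpac-19, also shared, had 0.33 ± 0.10 and did not pass.

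Of 4 RNA polymerase III genes measured, 1 rose and 0 fell in the limma fit (1 and 1 at an unadjusted p below 0.05). At that unadjusted p, 18.9% of all genes were higher and 9.1% lower. The small subunit gene rpc-11 had 10.33, 10.44 and 10.14 in Au-NP worms, against 9.82, 9.94 and 9.71 in controls, and rose by 0.48 ± 0.11 (SE, limma adjusted p = 0.0298). Its call was kept only without Au-NP replicate 3 among the fits that left out an array, and the span-corrected value was 0.40 (limma adjusted p = 0.0563). The largest subunit gene rpc-1 had -0.11 ± 0.09, the second-largest, rpc-2, had -0.10 and -0.28 in its 2 probe sets, and rpc-25 had 0.26 ± 0.14, none of them past the threshold.

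**Figure D3:**
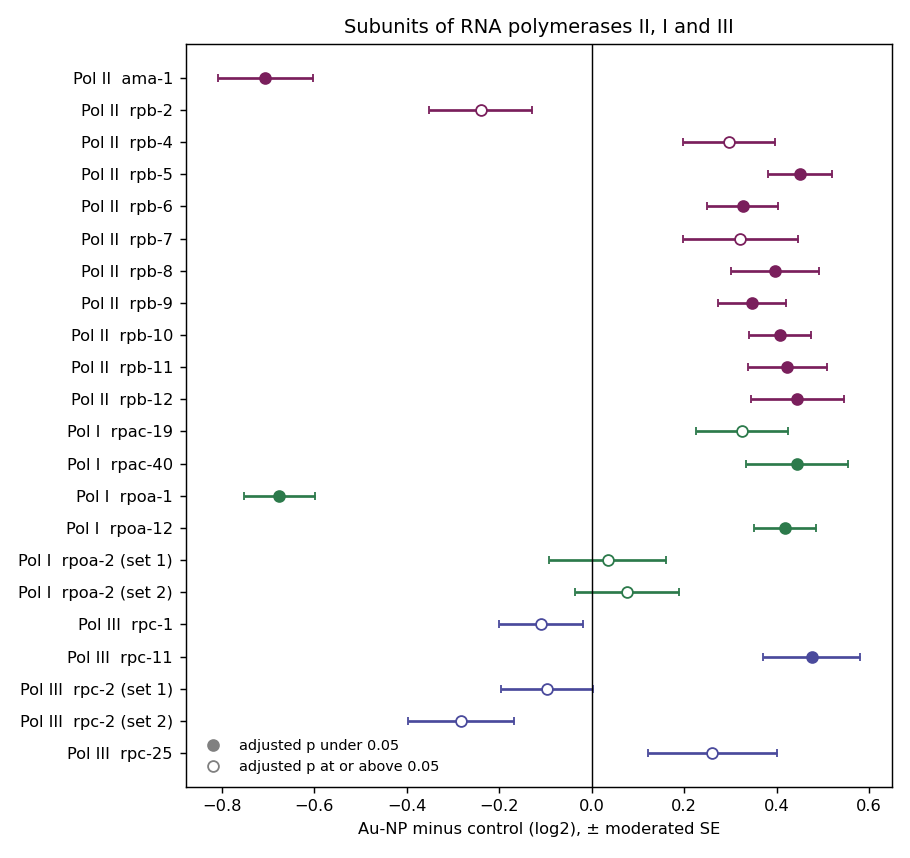
Au-NP minus control difference (log2, horizontal axis, ± moderated SE, 3 arrays per group) for each subunit probe set of RNA polymerases II, I and III, filled where the limma adjusted p was below 0.05. The largest-subunit genes ama-1 (-0.71) and rpoa-1 (-0.68) lie far to the left, rpc-1 lies at -0.11, and the small subunits lie between 0.26 and 0.48.

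RNA polymerase II is brought to promoters by the general transcription factors. Of 34 such genes measured, 2 rose (5.88%), 1 fell (2.94%) and 31 did not pass, with a median of 0.12. Over all named genes the shares were higher, at 7.49% that rose and 4.94% that fell. The gene for the TATA-binding protein, tbp-1, had 9.12, 9.03 and 8.95 in Au-NP worms, against 8.64, 8.68 and 8.69 in controls, and rose by 0.37 ± 0.08 (SE, limma adjusted p = 0.0245). The gene gtf-2H5, for a small subunit of the helicase-bearing factor TFIIH, rose by 0.54 ± 0.11 (limma adjusted p = 0.0246). The gene taf-1, for the largest subunit of the promoter-binding factor TFIID, fell by 0.38 ± 0.07 (SE, limma adjusted p = 0.0191). After the correction for span these became 0.29, 0.40 and -0.22, with limma adjusted p of 0.0524, 0.0778 and 0.120. With single arrays left out, tbp-1 passed when Au-NP replicate 3 was the missing array and gtf-2H5 when it was Au-NP replicate 3 or control replicate 1, and neither passed otherwise, while taf-1 lost it without Au-NP replicate 2, control replicate 1 or control replicate 3. The gene taf-7.2 had 0.27 ± 0.07 and did not pass (limma adjusted p = 0.0524).

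Factors that act on the elongating enzyme or on its CTD had 5 of 25 measured genes lower and 0 higher (8 and 5 at an unadjusted limma p below 0.05), with a median of -0.09. Of all genes, 4.94% were lower and 7.49% higher at the threshold, and 9.1% were lower and 18.9% higher at the unadjusted p. The gene ell-1, for an elongation factor of the ELL family, had the largest falls. Its 3 probe sets had -1.761 ± 0.152, -1.272 ± 0.162 and -1.103 ± 0.079 (SE, log2). The first of these had 9.774, 9.301 and 9.219 in Au-NP worms, against 11.328, 11.152 and 11.098 in controls, so the groups lay more than 1 log2 unit apart. The gene xrn-2, for a nuclear exoribonuclease that acts in termination, fell by 0.99 ± 0.12, with 8.39, 8.08 and 7.95 in Au-NP worms, against 9.06, 9.15 and 9.18 in controls. The gene spt-16, for a subunit of the histone chaperone FACT, fell by 0.61 ± 0.08 in 1 of its 3 probe sets (limma adjusted p = 0.00826). The other two had -0.42 and -0.35 and did not pass. A CTD kinase gene, cdk-12, fell by 0.60 ± 0.11 in 1 of 2 probe sets (limma adjusted p = 0.0167). The remaining gene that passed, set-2, a histone methyltransferase gene named here only to complete the count, fell by 0.40 ± 0.10 in 1 of 2 probe sets. The probe sets of ell-1, xrn-2 and spt-16 with the smallest p passed in each fit that left out an array, whereas cdk-12 did not pass without control replicate 1, control replicate 3 or Au-NP replicate 2. Most of these genes are long, with ell-1, xrn-2, cdk-12 and set-2 at 7778 to 21212 bp and spt-16 at 4023 bp. In the class of genes from 5441 bp, 15% of probe sets were lower. After the correction for span the smallest-p probe sets of ell-1, xrn-2, spt-16 and cdk-12 had -0.96, -0.91, -0.62 and -0.53, and each passed.

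Mediator, the complex that links transcription factors to RNA polymerase II, had 3 of 25 measured genes higher and 2 lower, with a median of 0.03. The subunit gene mdt-31 rose by 0.50 ± 0.09 (SE, limma adjusted p = 0.0142) and mdt-18 by 0.31 ± 0.07 (limma adjusted p = 0.0375). The gene dpy-22, for the MED12 subunit of the kinase module, had 7.36, 7.35 and 7.61 in Au-NP worms, against 8.18, 7.85 and 8.40 in controls, and fell by 0.70 ± 0.15 (limma adjusted p = 0.0264). Its other probe set had -0.41 and did not pass. The other gene that fell, mdt-29, had -0.40 ± 0.08 in the probe set that passed and -0.35 in a probe set that did not. The gene mdt-11, named here only to complete the count, rose by 0.35 ± 0.09. After the correction for span mdt-18 had 0.25 and no longer passed (limma adjusted p = 0.0793), while mdt-31, dpy-22 and mdt-29 passed at 0.38, -0.61 and -0.38. With single arrays left out, mdt-31 lost its call without Au-NP replicate 2, control replicate 1 or control replicate 3. The calls of mdt-18 and mdt-29 were kept only without Au-NP replicate 3, and that of dpy-22 only without Au-NP replicate 3 or control replicate 2. Across all 6 lists of polymerase and transcription factor genes, 10 of 95 genes rose and 9 fell, against 7.49% and 4.94% of all genes. With an Au-NP array left out (replicates 1, 2 and 3 in turn), 2, 0 and 17 genes rose while 8, 4 and 10 fell. With a control array left out in the same way, 2, 2 and 2 rose while 4, 8 and 4 fell. Without Au-NP replicate 2, 19 of these 95 genes were higher at an unadjusted limma p below 0.05, as were 14.7% of all genes.

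**Figure D4:**
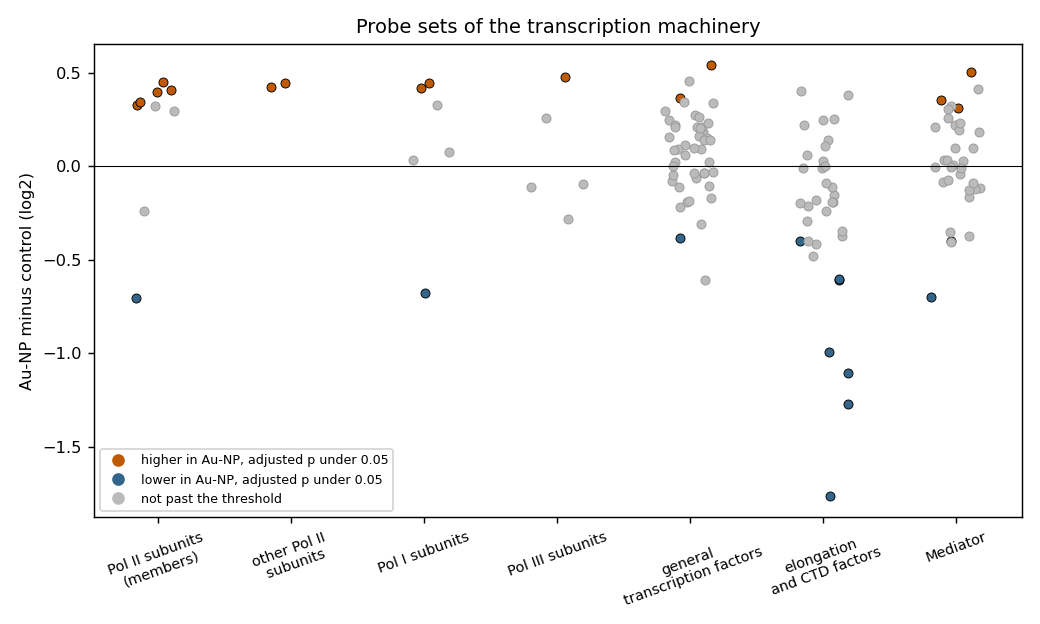
Au-NP minus control difference (log2, vertical axis) of each probe set of the RNA polymerase II subunits and of 6 lists of transcription genes, coloured where the limma adjusted p was below 0.05 (orange higher, blue lower) and grey otherwise. Points are spread sideways for legibility; the lowest, at -1.76 to -1.103 among the elongation and CTD factors, are the probe sets of ell-1.

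The genes whose values over the 6 arrays were most like those of ama-1 were found by the root-mean-square distance between log2 values centred on the control mean, with 1 probe set per gene. They were ceh-100, a homeobox gene, at a distance of 0.03, ZK131.11 and npp-9, a nuclear pore protein gene, at 0.04 each, rpn-1, a proteasome regulatory subunit gene, at 0.04, and tam-1 at 0.05. In all 5, as in ama-1, replicate 1 was the highest of the Au-NP arrays. The signal of npp-9 was 9.94, 9.61 and 9.60 in Au-NP replicates 1 to 3, against 10.38, 10.41 and 10.56 in the controls. These genes were picked for likeness over these same arrays, so the shared order of the Au-NP arrays follows from the choice. Their log2 differences, between -0.76 and -0.69, are likewise a description.

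Some marker genes of several tissues were lower along with ama-1, beside 4.94% of all genes that were lower. In the class of the longest genes, which holds ama-1, 15% of probe sets were lower. The germ line markers, at 1571 to 4147 bp, fall in shorter classes, in which 1.98% to 6.86% of probe sets were lower. At an unadjusted limma p below 0.05, 9.1% of all genes were lower and 18.9% higher. Of 12 germ line marker genes, 8 fell and 0 rose in the limma fit (10 and 0 at an unadjusted p below 0.05), with a median of -0.87. Their summed signal on the linear scale was 8075 to 11256 in Au-NP arrays and 16489 to 17955 in controls. By array the median of these markers was -0.62, -0.94 and -1.03 in Au-NP replicates 1 to 3, and ama-1 had -0.50, -0.81 and -0.80 against the control mean. No germ line marker had a signal below 5.80 on any array. Of 10 body-wall muscle markers 4 fell and 0 rose (4 and 1 at an unadjusted limma p below 0.05). Among those that fell was the myosin gene unc-54 at -0.97 ± 0.13 (SE, log2), a long gene of 7582 bp. With 1 probe set per gene, 6 of the 10 had negative differences and 4 positive ones. The summed signal of that list was 111758 to 123199 in Au-NP arrays and 129446 to 131496 in controls, and its median was -0.15. Of 10 pharynx markers 3 fell and 0 rose (3 and 2 unadjusted). Among those that fell was the myosin gene myo-2 at -1.73 ± 0.14, a long gene of 7288 bp. With 1 probe set per gene, 6 of the 10 had negative differences and 4 positive ones, with a median of -0.13. The summed signal of the pharynx list was 9973 to 11107 in Au-NP arrays and 12272 to 12963 in controls. Of the other lists, intestine had 1 higher and 1 lower of 9 genes, neurons 0 higher and 1 lower of 10 (3 and 2 unadjusted), and hypodermis 1 higher and 0 lower of 9 (2 and 2 unadjusted). The part of tissue content in the values of the subunits was not tested.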

How the data were processed

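Whole-worm RNA from 3 Au-NP and 3 control dishes was hybridised to 1 Affymetrix array per dish. The deposited table holds log2 values. Per the submitters' processing notes RMA produced them, and Partek 6.4 is named there with no stated role. In RMA a background is removed, arrays are quantile-normalized and probes are summarised by set, so that weak signals are compressed and a shift shared by most transcripts is lost. The scale was read from the values (3.44 to 15.2). No detection calls entered the work. A build for the array is not given in the sources used here, so coordinates are not printed.

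Of 22625 rows, 77 Affymetrix control probe sets were left out. By the platform annotation 20766 probe sets had 1 symbol, 887 had several and were left unnamed, and 895 had none. Gene spans came from the reference table of assembly WBcel235 (20701 probe sets). The test was limma 3.58.1 under R 4.3.3 (linear model with group alone, eBayes, two-sided, Benjamini-Hochberg over 22548 probe sets, threshold 0.05), with no filter on low values. Genes were called through any probe set of their own that passed. Between 4 and 15 values were identical in any 2 arrays, so each array counted as a sample. The precision is limited by the number of arrays.

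The members and lists were chosen with earlier results of these data known. The genes named were the members, rpb-11, rpb-12, up to 4 genes per transcription list with the smallest p, and the 5 genes nearest to ama-1. Alternatives were a replicate block, each array left out, a second quantile normalization, median centring, a filter at the median level, array weights, dropping probe sets with a shared-probe suffix, trend and robust variances, a lowess correction for gene span, thresholds of 0.01 and 0.1, and 1 probe set per gene. The fit was tested on simulated data of the Au-NP against control comparison with 22548 probe sets, 200 of them changed, in 5 runs: the fit recovered 41.2% of shifts of 0.5, 94.8% of shifts of 1 and 100% of shifts of 2 log2 units, and made 13 false calls per run on average.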

Additional observations from a re-analysis of the deposited data

How the results depend on the processing

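The log2 differences of the 9 subunit probe sets kept their sign under every alternative in which they were measured. In its 14 such fits, ama-1 had -0.81 to -0.63 and passed each time (limma adjusted p from 0.00396 to 0.0493). It was not measured without probe sets that may cross-hybridize, which leaves 3 of the 9 (rpb-5, rpb-6 and rpb-10), 3 of them higher and 0 lower (3 and 0 at an unadjusted p below 0.05). In that fit 16.4% of all probe sets were higher at an unadjusted limma p below 0.05. With the replicate number as a block, 3 subunits were higher in place of 5. Deviations from the group means correlated at -0.33, 0.43 and 0.22 for replicates 1 to 3, which does not settle whether the numbers mark pairs. The labels state no pairing, so the block fit is given here only. Leaving out single arrays gave 0 to 4 subunits higher, the correction for span gave 1, and array weights added rpb-4. A threshold of 0.01 gave 0 higher, while 7 were higher at an unadjusted limma p below 0.05, as were 16.1% of all probe sets.

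Of the transcription list genes, 10 were higher and 9 lower. The higher count was 5 with the replicate block, 6 after quantile normalization again, 22 with array weights and 2 with the correction for span. It was 0 at a threshold of 0.01, 20 at 0.1, and 0 to 17 with single arrays left out. At an unadjusted limma p below 0.05, 28 of these genes were higher, as were 18.9% of all genes. The lower count was 14 with array weights, 4 at 0.01, 14 at 0.1 and 4 to 10 with single arrays left out.

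Over all probe sets, 1408 were higher and 1281 lower. With single arrays left out there were 146 to 2047 higher and 410 to 1953 lower. The higher count was 2372 with array weights, 738 with the correction for span, 121 at 0.01 and 2484 at 0.1. The lower count was 628 without probe sets that may cross-hybridize, 383 at 0.01 and 746 with 1 probe set per gene. Higher calls were 52.4% of all calls, 40.2% with the correction for span, 24% at 0.01, 61.4% without probe sets that may cross-hybridize, 61.2% with 1 probe set per gene, and 26.3% (without Au-NP replicate 2) to 51.2% (without Au-NP replicate 3) with single arrays left out. The cause of these changes was not tested. In the simulation 41.2% of shifts of 0.5 log2 units were recovered, and no smaller shift, such as those of the small subunits, was simulated. It changed 200 probe sets, whereas 2689 were called here. Its recovery therefore cannot be carried over to the small subunits.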
